A study of Mus musculus with 7 samples.

Results

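The 10 genes described here are the D cyclins (*Ccnd1*, *Ccnd2* and *Ccnd3*), their kinases (*Cdk4* and *Cdk6*) and 5 inhibitors of cyclin-dependent kinases (*Cdkn1b*, *Cdkn1c*, *Cdkn2a*, *Cdkn2b* and *Cdkn2c*), taken by symbol from the 33696 genes of the count matrix of the cultured BB-p53n OPCs. They were followed across nuclei that differed in the counts of *Top2a* (DNA topoisomerase II alpha) and *Mki67* (the Ki-67 antigen), transcripts that accumulate in dividing cells. All 10 genes had unique molecular identifiers (UMIs, each one captured RNA molecule), from 175 for *Cdkn1c* to 176658 for *Ccnd1*.

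The series followed gliomas in mice that arise from injected mutant oligodendrocyte progenitor cells (OPCs), by single-nucleus RNA sequencing (snRNA-seq). The library used here was made from the cells in culture before any injection. These were primary OPCs of either sex from C57BL/6 pups at postnatal day 5 to 7, selected with an antibody to CD140a (PDGFRα). The pups carried *Trp53* alleles flanked by loxP sites, and a retrovirus with PDGFB-IRES-CRE made the cells both *Trp53* null and overexpressing of PDGFB. All nuclei compared below come from this 1 culture, and whether each nucleus carries both changes was not checked. No wild type or uninjected control library enters the comparisons. The library is 1 sample with no replicate, and the 6 libraries from brains with early or late tumors were not analysed here.

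In the textbook account, D cyclins are the part of the cell cycle engine that answers to growth factors such as PDGF. They bind CDK4 or CDK6, and these kinases phosphorylate the retinoblastoma protein (Rb), which frees E2F transcription factors to switch on the genes of DNA replication. The inhibitors come in 2 families. The INK4 proteins, p16 (*Cdkn2a*), p15 (*Cdkn2b*), p18 (*Cdkn2c*) and p19 (*Cdkn2d*), bind CDK4 and CDK6 alone, whereas the CIP/KIP proteins p21 (*Cdkn1a*), p27 (*Cdkn1b*) and p57 (*Cdkn1c*) act on a wider range of cyclin-CDK complexes. *Cdkn2a* also encodes ARF, which stabilizes p53. In the oligodendrocyte lineage, p27 is known for its part in the exit of OPCs from the cell cycle.

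Of 10047 barcodes, 8917 had 2000 to 8000 detected genes, with 141138093 UMIs and a median of 13771 per nucleus. Among them, 669 nuclei (7.50%) had no UMI of *Top2a* or *Mki67* and 5321 nuclei (59.7%) had 3 or more of each. The remaining 2927 lay between. The nuclei without either transcript were shallower, with a median of 9287 UMIs against 16901, and their share of mitochondrial UMIs was 6.60% against 6.24%. Cell cycle phase was called from 43 S and 54 G2/M genes, none of them a member, after each nucleus was thinned at random to 5000 UMIs. The G2/M genes include *Top2a* and *Mki67*, so the phase calls are not independent of the grouping. Of the nuclei without either transcript, 558 were called G1, 72 S and 3 G2/M. Of those with 3 or more of each, 626 were G1, 1234 S and 3439 G2/M. All 8 OPC markers were at 10 CPM or above (CPM, the UMIs of a gene in 1000000 UMIs of the group) and summed to 5369 CPM. Of markers of other cells, *Cldn5* of endothelium was at 0, the 5 microglial markers summed to 7.57 CPM and the 5 fibroblast or pericyte markers to 0.503 CPM. *Syt1*, at 109 CPM, was the only neuron marker above 10 CPM.

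Of the D cyclins, *Ccnd1* was by far the most counted. It made up 84.8% of the 208378 D cyclin UMIs, *Ccnd2* 10.7% and *Ccnd3* 4.52%. Its level in all nuclei was 1252 CPM (95% exact Poisson interval 1246 to 1258), and only 79 of the 25898 genes with a UMI had more. *Ccnd2* was at 158 CPM (156 to 160.1) and *Ccnd3* at 66.7 CPM (65.3 to 68.0). Divided by the kilobases of annotated exon, the 3 levels were 262, 16.8 and 7.21 CPM per kb, although a 3′ assay counts transcripts once whatever their length. *Cdk4* was at 354 CPM and *Cdk6* at 16.4 CPM, or 103 and 1.14 CPM per kb of exon.

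The INK4 genes ran from abundant to barely counted. *Cdkn2a* was at 130.3 CPM, or 111 CPM per kb of exon, and its 18386 UMIs sum the transcripts of p16 and of ARF, which share their last exons and could not be told apart here. *Cdkn2c* was at 71.4 CPM and *Cdkn2b*, the neighbor of *Cdkn2a* on chromosome 4, at 4.31 CPM. Of the CIP/KIP genes, *Cdkn1b* was at 79.7 CPM and *Cdkn1c* at 1.24 CPM. Intervals on these levels and on the ratios below cover counting error only, since nuclei of 1 culture are not replicates.

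The members lie on chromosomes 4, 5, 6, 7, 10 and 17 of GRCm39. *Ccnd1* (chr7:144483668-144493662, minus strand) and *Cdkn1c* (chr7:143012069-143014806, minus) are on chromosome 7, and *Ccnd2* (chr6:127102125-127129156, minus) and *Cdkn1b* (chr6:134897364-134902476, plus) on chromosome 6. *Cdkn2a* (chr4:89192708-89212890, minus), *Cdkn2b* (chr4:89223204-89229276, minus) and *Cdkn2c* (chr4:109517957-109524386, minus) are on chromosome 4. *Ccnd3* is at chr17:47815767-47910624 (plus), *Cdk6* at chr5:3391485-3581008 (plus) and *Cdk4* at chr10:126895180-126903789 (plus). *Cdkn1c* overlaps *4933417O13Rik* on the same strand, so that its few UMIs are the least certain. *Cdk4* overlaps *Marchf9* and *Tspan31*, and *Ccnd3* overlaps *Bysl*, on the opposite strand.

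Between nuclei without *Top2a* or *Mki67* and nuclei with 3 or more of each, D cyclins and their kinases differed by under 1.5-fold. Of the inhibitors, 2 were higher. The ratios of *Ccnd2* and *Cdk6* changed direction with the nuclei kept, as given in the last section. *Cdkn2c* was 3.44 times and *Cdkn1b* 1.52 times as high where both transcripts were counted, and no member was lower by 1.5-fold. A ratio of 1.5 either way was the size used for a call, since 1 library allows no test. Of all 13855 genes with at least 100 UMIs in the 2 groups, 7.06% were at least 1.5 times higher and 8.98% at least 1.5 times lower, so the 2 of 10 members called higher are to be read beside that share. The median log2 ratio of CPM was 0.23 over the members and -0.04 over the genes tested.

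**Figure D1:**
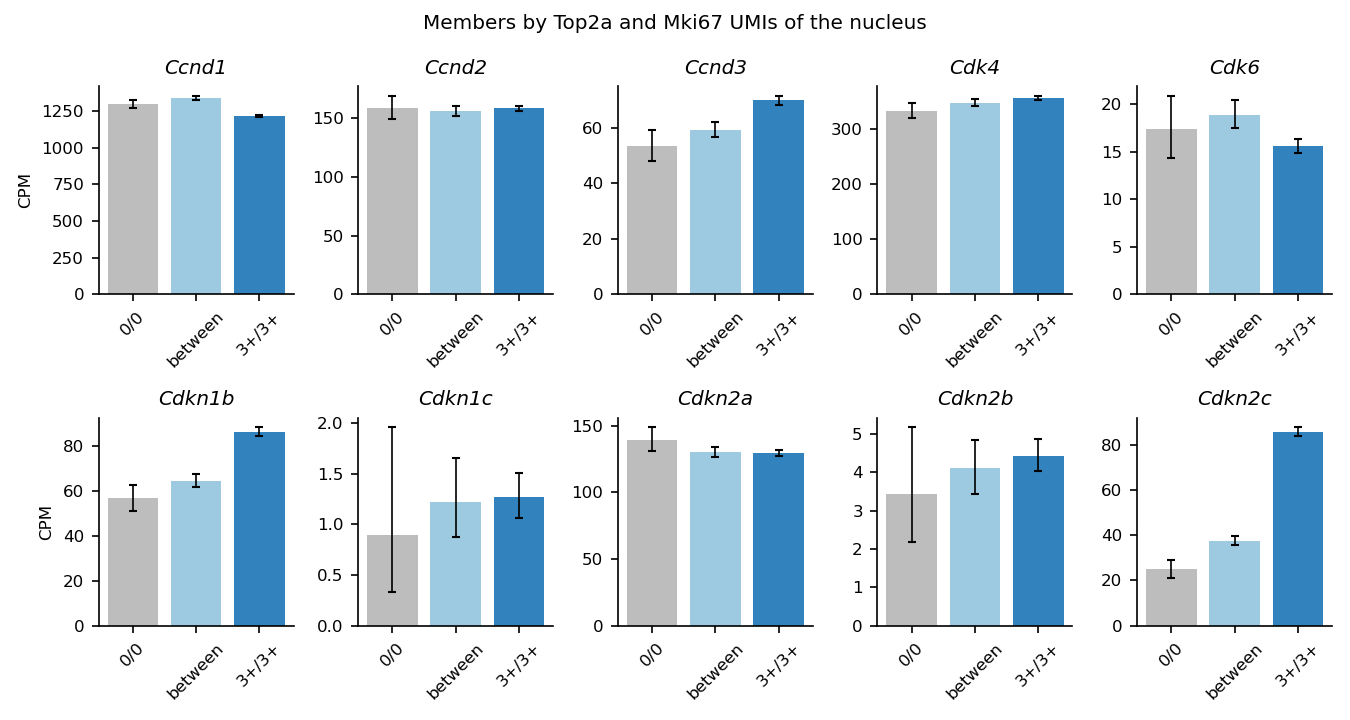
Level of each member (CPM, axes from 0 and different for each gene) in nuclei with 0 UMIs of both *Top2a* and *Mki67* (0/0, 669 nuclei), in the 2927 nuclei between, and in the 5321 nuclei with 3 or more of each (3+/3+). Bars are levels over the summed nuclei and whiskers 95% exact Poisson intervals; *Cdkn2c* climbs from 24.9 to 85.7 CPM, while *Ccnd2* stays at 156 to 159 CPM.

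*Cdkn2c*, which encodes p18, was at 24.9 CPM (21.2 to 29.0) in nuclei without either transcript, 37.6 CPM (35.5 to 39.7) in the nuclei between and 85.7 CPM (83.9 to 87.5) in those with 3 or more of each. The 3 intervals did not overlap, and the ratio of the outer groups was 3.44 (95% exact interval 2.95 to 4.04). Of the genes tested, 1.81% had a higher ratio. After thinning to 5000 UMIs, 11.2% (8.87 to 13.9, exact binomial) of 633 nuclei without either transcript had a *Cdkn2c* UMI, against 33.3% (32.02 to 34.6) of 5299 nuclei with 3 or more of each. Without thinning the shares were 21.7% and 70.9%, at the median depths given above. The inhibitor that binds CDK4 and CDK6 was thus counted most in the nuclei with the most transcripts of division.

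*Cdkn1b* was at 56.7 CPM (51.1 to 62.7), 64.5 CPM (61.8 to 67.3) and 86.3 CPM (84.5 to 88.2) in the same order, a ratio of 1.52 (1.37 to 1.69). This lies barely past the size used for a call, and the interval reaches below it. Under 18 other settings the ratio was at least 1.5 in 9, and it fell to 1.445 with at most 5% mitochondrial UMIs, 1.499 where 2 or more of each transcript made the high group and 1.47 after thinning, so the call did not hold under these. A *Cdkn1b* UMI was found in 23.5% (20.3 to 27.04) and 34.3% (33.0 to 35.6) of thinned nuclei, or 40.7% and 73.0% unthinned. Transcripts of p27, known above all for control after transcription, were therefore not lower in the nuclei with *Top2a* and *Mki67*.

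The other inhibitors gave no call. *Cdkn2a* was at 139.5 CPM (130.7 to 148.7) without either transcript and 129.7 CPM (127.5 to 131.9) with 3 or more of each, a ratio of 0.930 (0.870 to 0.995). *Cdkn2b* had a ratio of 1.29 (0.847 to 2.05) on 23 and 448 UMIs. *Cdkn1c* had 6 and 128 UMIs and a ratio of 1.41 (0.630 to 3.91), so that neither direction can be read at this depth. A gauge of RNA from other nuclei was the 3.07% (2.24 to 4.10) of 1433 nuclei with 3 or more thinned *Xist* UMIs, at a median of 12099 UMIs, that also held a UMI of 1 of 4 Y-linked genes. A *Cdkn1c* UMI was found in 0.662% of all thinned nuclei (1.78% unthinned) and a *Cdkn2b* UMI in 2.18% (6.46% unthinned), and the *Cdkn1c* share differed between clusters.

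*Ccnd1* was at 1300.0 CPM (1273 to 1328) without either transcript, 1342 CPM (1330 to 1355) between and 1218 CPM (1211 to 1225) with 3 or more of each, a ratio of 0.937 (0.917 to 0.958). A *Ccnd1* UMI was present in 97.3% and 97.9% of thinned nuclei of the outer groups (98.1% and 99.7% unthinned). *Ccnd2* was at 159 CPM and 158 CPM, with a ratio of 0.995 (0.935 to 1.06). *Ccnd3* was at 53.5 CPM (48.1 to 59.4) and 70.0 CPM (68.3 to 71.6), with a ratio of 1.31 (1.18 to 1.46) that fell short of a call. Transcripts of *Ccnd1* were thus plentiful in nuclei on both sides of the comparison. A *Ccnd2* UMI was present in 38.1% and 40.5% of thinned nuclei of the outer groups (48.6% and 63.0% unthinned). For *Ccnd3* the shares were 19.75% and 27.7% (38.6% and 64.4% unthinned).

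*Cdk4*, at 333 CPM (320 to 348) and 357 CPM (353 to 361), had a ratio of 1.07 (1.03 to 1.12), and *Cdk6*, at 17.4 and 15.6 CPM, one of 0.895 (0.741 to 1.09). For each 100 *Cdk4* UMIs there were 7.47 *Cdkn2c* UMIs in nuclei without *Top2a* or *Mki67* and 24.0 in nuclei with 3 or more of each. These are counts of RNA and say nothing of protein.

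On the scale of UMIs per nucleus, all 10 members were higher in the nuclei with 3 or more of each, from 1.70 times for *Cdk6* to 6.55 times for *Cdkn2c*. The median of all genes tested was 1.86 times on that scale, since these nuclei hold more UMIs. *Cdkn1b*, *Ccnd3*, *Cdkn1c* and *Cdkn2b* lay above that median at 2.90, 2.49, 2.68 and 2.45 times, *Ccnd1* and *Cdkn2a* below it at 1.78 and 1.77 times. At a matched depth of 10000 to 20000 UMIs, with 268 and 2875 nuclei, the CPM ratio of *Cdkn2c* was 4.08 (3.23 to 5.23) and that of *Cdkn1b* 1.63 (1.40 to 1.90). With *Cdk6* at 1.63 (1.15 to 2.37) and *Cdkn2b* at 2.32 (1.16 to 5.44), 4 of the 9 members with at least 100 UMIs were at least 1.5 times higher, where 12% of 12322 genes were. *Cdkn1c*, at 2.35 (0.622 to 19.9) on 2 and 58 UMIs, did not pass that minimum. *Cdk6* was below 1 over all depths.

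The other genes of the pathway were taken in 5 lists, chosen with earlier results of these data known. Of 13 later cyclins and kinases, 8 were at least 1.5 times higher and none lower, with a median log2 ratio of 0.71. *Ccnb1* (cyclin B1), *Cdc25c* (a phosphatase that activates CDK1), *Ccna2* (cyclin A2) and *Cdk1* had ratios of 11.8, 11.6, 10.8 and 8.94. *Ccnb2* (cyclin B2) was at 2.46, *Ccne2* (cyclin E2) at 1.63, *Cdk2* at 1.55 and *Ccne1* (cyclin E1) at 1.31, while the 3 genes of the CDK-activating kinase, *Ccnh*, *Cdk7* and *Mnat1*, had ratios of 0.964, 0.854 and 1.00. *Cdkn2c* thus lay between *Cdc25b*, at 2.94, and *Cdk1*.

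Of 13 genes of the Rb and E2F families, 5 were higher and none lower. *E2f8*, *E2f7* and *E2f2* had ratios of 4.26, 4.08 and 3.14, *Rbl1* (p107) 2.05 and *E2f1* 1.81. *Rb1* itself was at 31.7 and 43.5 CPM, a ratio of 1.37 (1.20 to 1.58), and *Rbl2* (p130), known from resting cells, at 24.9 and 27.8 CPM. *E2f4*, a repressor partner of p130, had a ratio of 1.04.

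Of 6 further inhibitors and p53 targets, 2 were higher and none lower. These were *Cdkn2d* (p19), with 28.1 and 82.0 CPM and a ratio of 2.92 (2.53 to 3.40), and *Cdkn3*, a phosphatase of CDKs, at 2.63. The INK4 genes other than those of p16 and p15 were therefore both higher. *Cdkn1a* (p21), the best known target of p53, was at 25.8 CPM (172 UMIs) and 18.0 CPM, a ratio of 0.696 (0.595 to 0.819), in cells made *Trp53* null. *Trp53* itself was still counted, at 28.9 and 24.4 CPM, but a 3′ tag can lie outside the deleted exons, so that these counts do not check the deletion.

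Of 9 genes of the turnover of p27 and D cyclins, 3 were higher and none lower. They were *Cks2* at 5.48, *Fzr1* (the CDH1 adaptor of the anaphase-promoting complex) at 2.66 and *Cks1b*, the cofactor with which SKP2 marks p27 for degradation, at 2.52. *Skp2* itself had a ratio of 1.34 (1.19 to 1.51), and *Ambra1* and *Gsk3b*, which bear on the stability of D cyclins, were at 1.00 and 0.995. Of 12 upstream regulators, 11 passed the minimum, and *Ezh2*, a methyltransferase that silences *Cdkn2a* in many cells, was the one called, at 1.95 (1.83 to 2.08). *Myc* was at 86.1 and 58.0 CPM, a ratio of 0.674 (0.618 to 0.735) just short of a call. *Foxo1*, *Foxo3* and *Id2* lay between 0.766 and 0.779, and *Pdgfra* had a ratio of 1.13. *Id1* had 9 and 73 UMIs in the 2 groups and was left out.

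**Figure D2:**
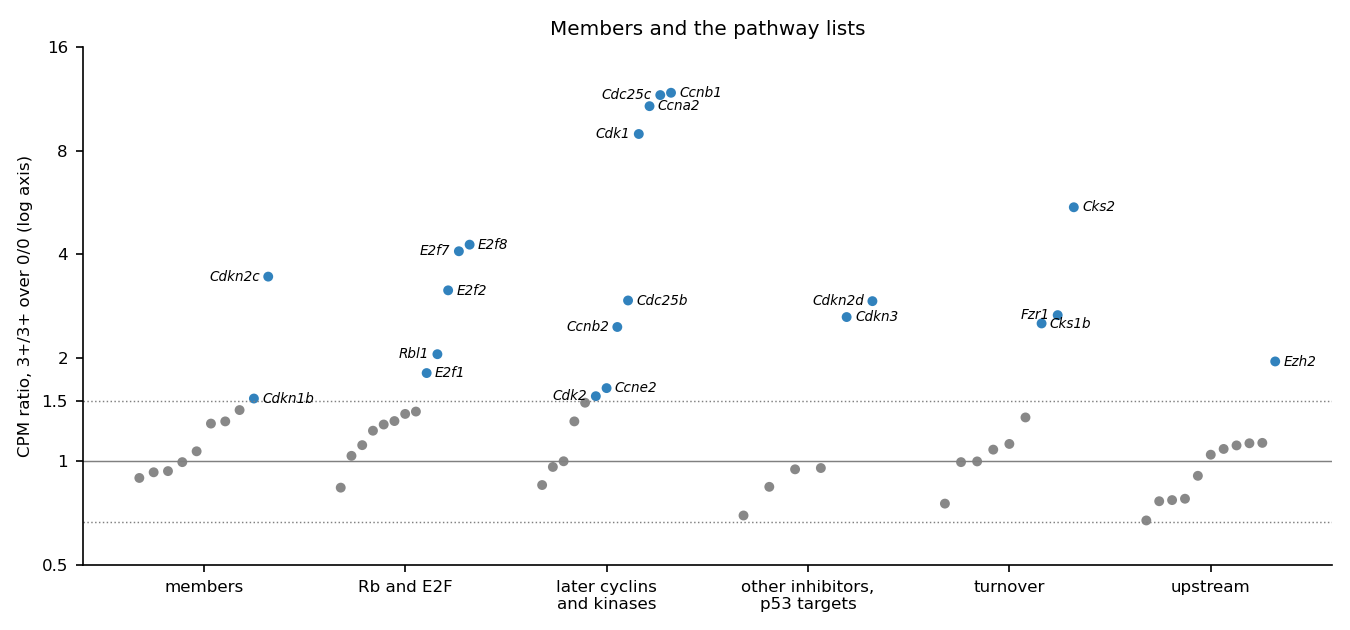
CPM ratio between nuclei with 3 or more UMIs of both *Top2a* and *Mki67* and nuclei with 0 of both (log axis) for the 10 members and the genes of 5 pathway lists. Each point is a gene, blue where the ratio is at least 1.5, and dotted lines mark 1.5-fold either way; *Cdkn2c* at 3.44 stands among the E2F genes and below *Cdk1* at 8.94.

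By phase, *Cdkn2c* was at 36.4 CPM (34.5 to 38.4) in 2712 G1 nuclei, 53.2 CPM (50.7 to 55.8) in 2227 S nuclei and 98.3 CPM (96.0 to 100.6) in 3821 G2/M nuclei, 2.70 times the G1 level. *Cdkn1b* was at 68.3, 63.8 and 93.1 CPM, with G2/M at 1.36 times (1.30 to 1.43) G1 and S slightly below it. Together with *Cdkn1c*, at 1.53 times on 37 and 106 UMIs, *Cdkn2c* made 2 members at least 1.5 times higher in G2/M than in G1, where 3.30% of 13934 genes were, and no member was 1.5 times lower (4.51%). In S against G1, *Cdkn2b* was at 1.71 times (1.36 to 2.16), on 130 and 187 UMIs, and was the only member called (4.27% of genes). *Ccnd1* was highest in G1 at 1332 CPM and lowest in G2/M at 1195 CPM, *Cdk4* highest in S at 380 CPM against 322 CPM in G1. Phase calls also read RNA from other nuclei, whose part was not tested, and they are given as a grouping and not as a count of cycling cells.

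Clusters were re-derived with the settings of the study's methods from all 8917 nuclei within the gene cutoffs and without a mitochondrial limit, which gave 8 clusters numbered by size. Both the nuclei and the number of clusters differ from those of the study, so the numbers given here do not name its clusters. They are given no cell type name, and since members may help to set them, levels by cluster are a description. *Cdkn2c* was lowest in cluster 2 at 32.8 CPM, where 65.3% of nuclei were called G1, and highest in cluster 4 at 99.96 CPM, where 92.8% were called G2/M. Between these ends the order was 1, 5, 7, 6, 0 and 3, and 3 of the 7 neighboring pairs had separate intervals. This order did not follow the phase calls throughout. Cluster 1, next to the lowest at 44.2 CPM, had 49.8% of nuclei called G2/M and 25.5% called G1.

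Within clusters, *Cdkn2c* was higher in nuclei with *Top2a* and *Mki67* each time. In the 5 clusters with at least 20 nuclei in both groups the ratio was 5.32 (3.89 to 7.47) in cluster 0, 1.94 (1.30 to 3.01) in cluster 1, 1.79 (1.33 to 2.44) in cluster 2, 3.83 (2.65 to 5.74) in cluster 3 and 3.65 (1.92 to 7.80) in cluster 7. The level without either transcript lay between 21.1 and 29.1 CPM in these 5, while the level with 3 or more of each was 112, 51.9, 41.5, 110.7 and 106 CPM. The clusters thus parted in the nuclei with *Top2a* and *Mki67*. *Cdkn1b* ratios ran from 1.10 (0.703 to 1.79) in cluster 7 to 1.87 (1.43 to 2.49) in cluster 1 and passed 1.5 in clusters 0 and 1 only. *Cdk4* ratios were 0.995 to 1.13 in the same 5 clusters.

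**Figure D3:**
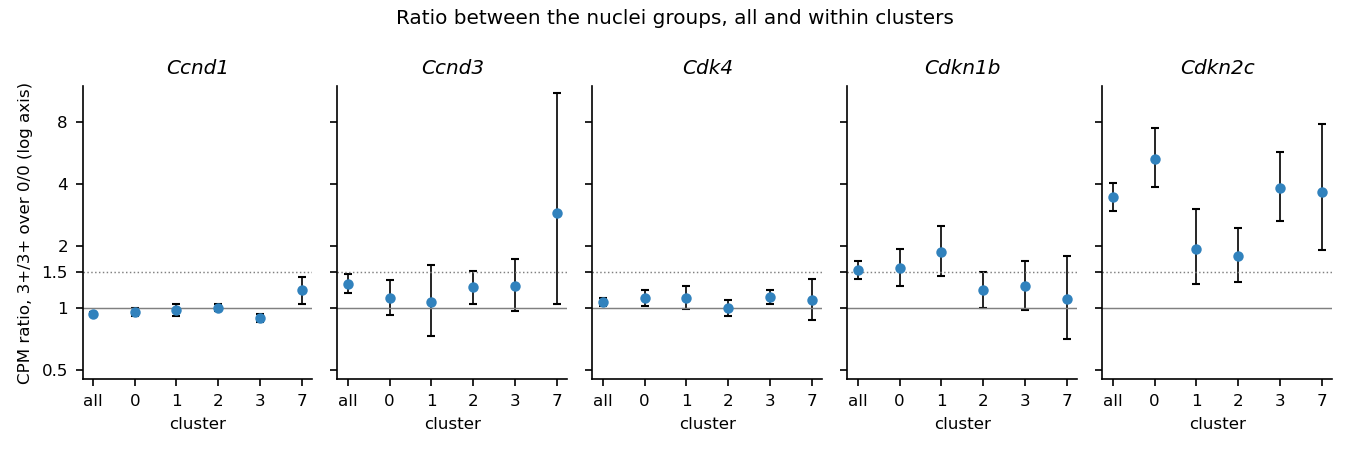
CPM ratio between nuclei with 3 or more of both *Top2a* and *Mki67* and nuclei with 0 of both (log axis) over all nuclei and within each cluster with at least 20 nuclei in both groups. Points are ratios, whiskers 95% exact intervals and the dotted line 1.5; *Cdkn2c* is above 1.5 in every column, from 1.79 in cluster 2 to 5.32 in cluster 0, while *Cdk4* stays between 0.995 and 1.13.

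The D cyclins were divided differently among the clusters. *Ccnd2* was at 405 CPM (397 to 413) in cluster 1 (1733 nuclei) and at 63.5 to 164 CPM in the other 7, that is 3.61 times (3.52 to 3.71) its level in the other nuclei. Its share of the D cyclin UMIs was 29.0% (28.5 to 29.5) there and 4.51% to 11.6% elsewhere. A *Ccnd2* UMI was found in 79.5% of thinned nuclei of cluster 1 and in 22.9% to 48.6% of those of other clusters (92.8%, and 42.1% to 84.3%, unthinned). In the same cluster *Ccnd3* was at 31.1 CPM against 73.3 CPM in the other nuclei, and *Ccnd1* at 960 CPM against 1306 CPM, so the sum of the 3 D cyclins, 1396 CPM, lay within the 906 to 1963 CPM of the other clusters.

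Cluster 1 also differed in growth factor receptors. *Egfr* was at 236 CPM, 8.39 times the other nuclei, and *Pdgfra* at 19.4 CPM, 0.0646 times. The sum of the 8 OPC markers was 1808 CPM there, the lowest of the clusters, and markers of other cells were low too, with neuron markers at 36.2 CPM and astrocyte markers at 5.96 CPM. The part of these differences in the *Ccnd2* level was not tested. In all, 1 member was at least 1.5 times higher in cluster 1 (22.2% of 14531 genes were) and 4 were 1.5 times lower (18.6%), namely *Ccnd3*, *Cdk6*, *Cdkn1c* and *Cdkn2c*. *Cdkn1b* reached its highest level there, 99.5 CPM, at 1.31 times the other nuclei.

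In nuclei of cluster 1 without *Top2a* or *Mki67*, *Ccnd2* was at 385 CPM, against 425 CPM in those with 3 or more of each. In cluster 3 the direction was opposite, 211 and 154 CPM (ratio 0.729, 0.631 to 0.844), and in cluster 2 it was 56.3 and 75.3 CPM (1.34, 1.10 to 1.63). The ratio was 0.952 (0.835 to 1.09) in cluster 0, 1.10 (0.991 to 1.23) in cluster 1 and 0.605 (0.4275 to 0.867) in cluster 7. How these make up the *Ccnd2* ratio of 0.995 over all nuclei was not tested. Among clusters, which *Ccnd2* may have helped to set, its level ran from 63.55 to 405 CPM.

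**Figure D4:**
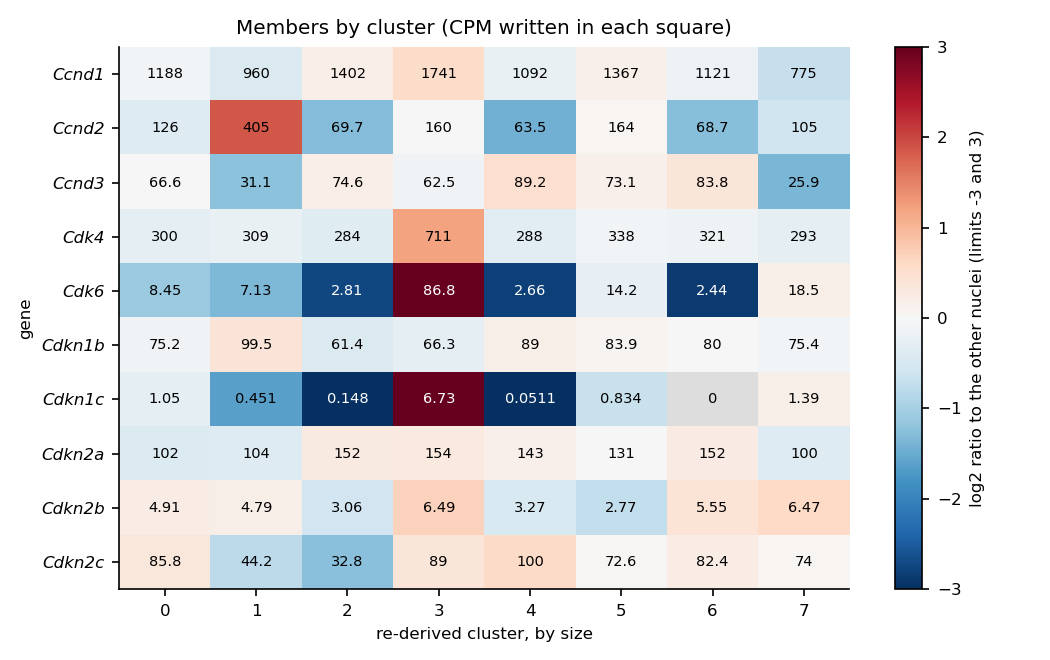
Members by re-derived cluster: colour is the log2 ratio of CPM between the cluster and all other nuclei (the colours end at a log2 ratio of 3 either way, grey where the cluster has 0 UMIs), and the number in each square is the CPM. *Ccnd2* stands out in cluster 1 at 405 CPM, and *Cdk4*, *Cdk6* and *Cdkn1c* in cluster 3 at 711, 86.8 and 6.73 CPM.

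Cluster 3 (1340 nuclei) held the highest level of *Ccnd1*, *Cdk4*, *Cdk6*, *Cdkn1c*, *Cdkn2a* and *Cdkn2b*. The intervals of *Cdkn2a* and *Cdkn2b* overlapped those of other clusters, and how many of all genes were highest there was not counted. *Cdk6* was at 86.8 CPM (82.4 to 91.5), 12.3 times (11.3 to 13.4) the other nuclei, and the cluster, with 11.8% of all UMIs, held 62.2% of those of *Cdk6*. A *Cdk6* UMI was found in 32.7% (30.2 to 35.3) of its thinned nuclei and in 1.11% to 8.38% of those of other clusters (50.2%, and 3.64% to 22.8%, unthinned). *Cdk4* was at 711 CPM (699 to 724), 2.33 times (2.28 to 2.37) the other nuclei, where the other 7 clusters lay between 284 and 338 CPM. In clusters 2, 4 and 6, *Cdk6* was at 2.44 to 2.81 CPM, against 284 to 321 CPM of *Cdk4*. These clusters lay 1.5-fold or more below the other nuclei in *Ccnd2*, *Cdk6* and *Cdkn1c*, and cluster 2 in *Cdkn2c* as well, which made 4 members lower in cluster 2 (14.9% of genes) and 3 each in clusters 4 (17.6%) and 6 (15.1%).

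Of the inhibitors, *Cdkn1c* was at 6.73 CPM in cluster 3 (112 UMIs), 13.3 times (9.69 to 18.4) the other nuclei. *Cdkn1c* was absent from the 11896805 UMIs of cluster 6, where a count of 0 allows up to 0.310 CPM. *Cdkn2b* was at 6.49 CPM (1.61 times), and *Ccnd1*, at 1741 CPM, and *Cdkn2a*, at 154 CPM, also had their highest level in cluster 3, at 1.47 and 1.22 times. The intervals of *Cdkn2a* in clusters 2, 3 and 6 overlapped, and so did those of *Cdkn2b* between all neighboring clusters in its order. *Cdkn1a*, not a member, was at 47.5 CPM there, 3.28 times the other nuclei. The shares with *Cdkn1c* were 3.12% of thinned nuclei in cluster 3 (7.39% unthinned) and at most 0.620% elsewhere. In all, 4 members were at least 1.5 times higher in cluster 3, where 10.5% of 14531 genes were, and none 1.5 times lower (11.2%). Among cell type markers, the OPC sum was 6113 CPM in this cluster and the neuron sum 255 CPM, of which *Syt1* gave 226 CPM.

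*Cdk4* was not alone on its chromosome. Each of the 10 nearest genes with at least 100 UMIs, 5 on either side within 0.174 Mb, was higher in cluster 3 than in the other nuclei, with ratios of 1.35 to 2.84 and a median of 2.27. *Tsfm*, *Tspan31* and *Os9* were at 2.17, 2.29 and 2.24 times, beside 2.33 for *Cdk4*, while the median of all 720 genes of chromosome 10 was 0.941. The 3 genes whose level was most like that of *Cdk4* over 21 pools of nuclei (clusters crossed with the 3 groups, Pearson correlation of log2(CPM + 1)) were *Srgap1* at 0.929, *Usp15* at 0.915 and *Ctdsp2* at 0.896, all 3 on chromosome 10. By Spearman's rho, none of these 3 was among the top 3.

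A running median over 11 genes, chosen after these values were seen, stayed at or above 1.5 for 45 consecutive genes around *Cdk4*, a stretch of 6.67 Mb. Of the 45 genes, 44 had a ratio above 1 and 37 at least 1.5, with a median of 1.98, and the other 675 genes of the chromosome had a median of 0.921. Before the run, the 20 genes next to it had a median of 1.65 and 13 of them were at 1.5 or above. They included a separate run of 13 genes, from *Dyrk2* to *Hmga2*. Between that run and the one around *Cdk4*, ratios went from 0.478 for *9230105E05Rik*, on 100 UMIs, to 1.81 for *Lemd3*. Beyond the run around *Cdk4* the ratios dropped. Of the 47 genes beyond it toward the end of the chromosome, 40 were at least 1.5 times lower in cluster 3, with a median of 0.541 and *Naca*, the first of them, at 2.11 as the only one at 1.5 or above. *Cdk2*, the partner of cyclins E and A, lies 1.64 Mb beyond *Cdk4* in that stretch and had a ratio of 0.366. The 2 kinase genes thus lay on either side of the step.

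Over the autosomes, 20 other runs at or above 1.5 were found in cluster 3, the longest of 14 genes, and 1.06% of 13973 genes had a running median that high. Around *Cdk4* no such run was found in the other 7 clusters, where the running median at *Cdk4* was 0.804 to 0.944. The 44 genes of the run other than *Cdk4* summed to 3527 CPM (3499 to 3556) in cluster 3 and to 1439 to 1718 CPM in the others. The run was picked for being high in cluster 3 in these same nuclei. A higher sum there follows from that choice, and these sums only describe its size. In single nuclei thinned to 5000 UMIs their summed count had a median of 18 (quartiles 14 and 22) in cluster 3 and of 7 in all other nuclei, and 97.3% of the nuclei of cluster 3 were above that 7.

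**Figure D5:**
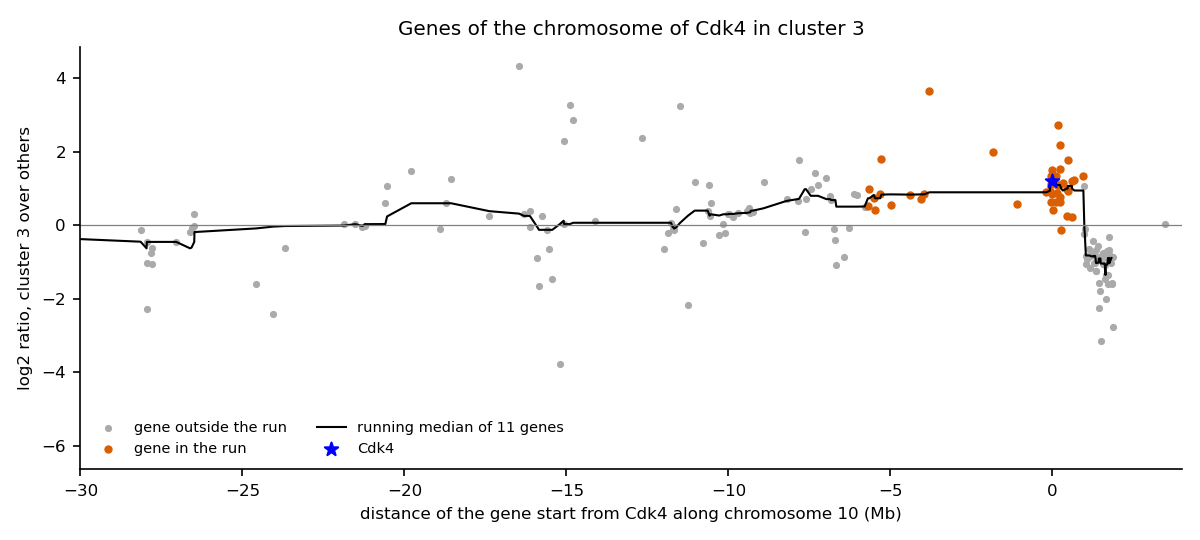
Log2 ratio of CPM between cluster 3 and all other nuclei for genes with at least 100 UMIs, by distance of the gene start from *Cdk4* (Mb, from -30 to 4). Orange points are the 45 genes of the run, grey points other genes, the star *Cdk4* at a ratio of 2.33 and the line the running median of 11 genes, which drops past the run, where 47 genes had a median ratio of 0.541.

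The run was as long in other cuts of the data. These cuts draw on nuclei of cluster 3, where the run was picked, and are no independent check. In nuclei without *Top2a* or *Mki67* it had 45 genes with a median ratio of 2.12, and in nuclei with at most 5% mitochondrial UMIs 46 genes with 2.08. Where nuclei were clustered without the members, the pathway genes and the phase genes, the cluster that shared most nuclei with cluster 3 gave 45 genes with a median of 1.89. DNA was not measured. *Cdk6*, on chromosome 5, showed no such pattern. Its 5 neighbors had ratios of 1.01 to 1.14 in cluster 3, against 12.3 for *Cdk6* itself, and the 10 neighbors of *Ccnd2* had a median of 1.21 in cluster 1, with *Tspan9* at 5.13 and *Gm26673* at 0.139.

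The promoter of *Cdk4* is shown because *Cdk4* stood out in cluster 3 and because it holds letters that few promoters hold. The 250 bases before the start of its canonical transcript (GRCm39 chr10:126899125-126899374, plus strand, overlapping no annotated exon) contain the letters CACGTG, the E-box bound by MYC and its relatives, 3 times. They end 137, 83 and 63 bases before the start and are in capitals.

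Cdk4: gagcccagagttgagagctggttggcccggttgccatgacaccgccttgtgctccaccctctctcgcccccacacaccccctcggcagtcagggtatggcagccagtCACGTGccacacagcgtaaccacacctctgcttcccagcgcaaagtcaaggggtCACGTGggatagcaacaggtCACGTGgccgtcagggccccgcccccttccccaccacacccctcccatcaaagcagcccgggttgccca

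Of 21431 promoters of the same length of protein-coding genes, 6.26% held these letters at least once and 0.0513% at least 3 times. Among the members *Cdk6* had them once and the other 8 not at all. The E2F letters TTTGGCGC, TTTCCCGC, TTTGCCGC and TTTCGCGC, read on both strands, were in 2.29% of promoters and in that of *Ccnd3* among the members. TTTGAA, the cell cycle homology region of G2/M genes, was in 15.6% of promoters and in those of *Ccnd2* and *Cdkn2b*. *Cdkn2c* and *Cdkn1b*, the 2 members called, had none of the 3 in this window. Only the canonical start of each gene was searched. The windows of *Cdkn2c*, *Ccnd3* and *Cdk6* overlap annotated exons of the same gene. Those of *Ccnd2*, *Cdk4* and *Cdkn2a* lie within the annotated span of the gene, so starts of other transcripts were left out. A match is a run of letters and not a site in use.

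The genes most like *Cdkn2c* over the 21 pools were *Kif18b* (0.927), the INK4 gene *Cdkn2d* (0.926) and *Kifc1* (0.914), of which *Kif18b* and *Kifc1* encode kinesins of the mitotic spindle. For *Ccnd2* they were *Ywhaq* (0.953), *Fkbp3* (0.953) and *Nwd1* (0.948), and for *Ccnd3* *Pou3f1* (0.964), *Pank3* (0.956) and *Slitrk2* (0.956). Pools share 1 library and differ in depth, and for *Cdkn2c*, *Ccnd2* and *Ccnd3* alike 1 of the 3 genes was also in the top 3 by Spearman's rho. Among the members, *Cdkn1c* and *Cdk6* had the highest correlation, 0.934 over the same pools, both being highest in cluster 3. *Ccnd2* and *Ccnd3* had the lowest, -0.498.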

How the data were processed

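Nuclei of cultured BB-p53n OPCs were profiled with 10x 3′ chemistry, and the authors made the counts with Cell Ranger 8.0.1 on mm39, with 15000 expected cells. The deposited matrix holds UMI counts per gene and barcode, not normalized. It has 154375410 UMIs in 10047 barcodes, of which 8917 with 2000 to 8000 detected genes were used, without a mitochondrial filter. The study lists 1954 nuclei after filtering, the number left here by the gene cutoffs together with at most 5% mitochondrial UMIs, a limit its methods do not give. Counts were summed by group and divided by all UMIs of the group (CPM). Ratios have exact conditional binomial intervals, levels exact Poisson and shares exact Clopper-Pearson intervals, all at 95% and for counting error only. Calls required 1.5-fold among genes with at least 100 UMIs. No test was made, since there is 1 library. Clusters of the 8917 nuclei, other nuclei and another number of clusters than the study's, followed its settings in Seurat 5.3.0 (R 4.3.3; scale factor 1000, 3000 variable genes, 20 components, 200 neighbors, resolution 1.0), and phases came from CellCycleScoring on nuclei thinned to 5000 UMIs, which left out 157. Scrublet (scanpy 1.11.5) called 0 doublets, too few for the caller to have worked, and removal of the 8% with the highest scores was tried instead. Cluster 5 had the deepest nuclei, with a median of 30276 UMIs. Coordinates and sequences were read from GRCm39 with GENCODE annotation, which is the build of the deposited counts, and 33185 of 33696 gene identifiers matched.

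The members and gene lists were chosen with earlier results of these data known. The genes named are the 10 members, the 5 pathway lists, the 2 genes of the grouping and, for members with at least 500 UMIs, the 3 genes with the highest Pearson correlation over pools of at least 20 nuclei among genes with at least 20 CPM. Neighbors on the chromosome were named after their values were seen. The ratio and its interval were checked on simulated data with counting error only, which hold no differences between nuclei of a group.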

Additional observations from a re-analysis of the deposited data

How the results depend on the processing

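Over 18 settings, among them each of 5 clusters alone, the *Cdkn2c* ratio was at least 1.5 in all, from 1.79 to 5.32. The *Cdkn1b* ratio was above 1 in all 18 and at least 1.5 in 9, from 1.10 to 1.87. Ratios of *Cdk4* ran from 0.995 to 1.23, of *Ccnd1* from 0.877 to 1.22 and of *Ccnd2* from 0.605 to 1.35. With at most 5% mitochondrial UMIs, *Ccnd2* was at 0.746, *Cdk6* at 0.738 and *Cdkn2a* at 0.728. At 10000 to 20000 UMIs the same 3 were at 1.35, 1.63 and 0.888. The number of members at least 1.5 times higher, 2 as reported, was 1 with at most 5% mitochondrial UMIs (1954 nuclei), 1 where 2 or more of each transcript made the high group, 5 at 10000 to 20000 UMIs (4 with at least 100 UMIs) and 10 as UMIs per nucleus. It was 3 in cluster 0 alone, with the low group kept to nuclei called G1 and by the Mantel-Haenszel ratio over clusters and depth classes. Of all genes tested, 7.06% were that much higher as reported and 12% at 10000 to 20000 UMIs. As UMIs per nucleus the median ratio of all genes was 1.86, so the 10 members are no result about them. Shares over all genes are not given for the other settings, and their counts of members cannot be set against one. The number of all genes at least 1.5 times higher, 978, was 1770 with a minimum of 20 UMIs and 6255 with a minimum of 1 UMI, and the number lower, 1244, was 2865 and 5572, since genes with few UMIs enter. Mantel-Haenszel ratios over clusters and depth, the cluster levels without the highest Scrublet scores or with at most 5% mitochondrial UMIs and the cuts of the run around *Cdk4* were chosen after seeing the data. Counts of members were not made within clusters 1, 2 and 7, where *Cdkn1c* had 0 UMIs in the low group. *Cdkn1c*, *Cdkn2b* and *Cdk6* are limited by depth, with 6, 23 and 116 UMIs in nuclei without either transcript. No paired analysis was possible because the cultured cells are 1 library, and the replicate numbers in the labels belong to the tumor libraries, which were not analysed here.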
